A study of Homo sapiens with 60 samples.

Results

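Cells of the human line 1321N1, which derives from an astrocytoma of the brain, were exposed to 20 µM mercury chloride for 6 h and compared with non-treated cells harvested after 6 h as well. The comparison rests on 6 of the 60 libraries of the series, namely the 3 titled with mercury and 6 h and the 3 titled non-treated and 6 h, which were chosen by these titles and not by any measured value. All 60 libraries, from cells exposed to 1 of 3 metals (mercury, cadmium, arsenic) or to none for 1.5 to 24 h, were sequenced from the 3′ end of the mRNA. All groups were kept in the same serum-containing medium with penicillin and streptomycin, the metal was added to full medium, and the non-treated cells received no metal. The 3 libraries of a group are described with the series as technical triplicates of 1 cell line, so the p-values below measure the spread between these libraries, which may be technical. The mercury libraries held 3442039 to 4110137 counts and the non-treated libraries 2439814 to 3068794, so their depths did not overlap. The number of genes called with every library thinned to equal depth was 194, against 186 in the fit below.

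Mercury ions bind thiol and selenol groups of proteins and of glutathione, and cells answer such stress with a small number of well-known transcriptional programs. HSF1 switches on heat-shock genes, which encode chaperones that hold or refold damaged proteins. NRF2 is released from its sensor KEAP1 and turns on genes for glutathione and thioredoxin metabolism and heme breakdown, whereas MTF1 senses zinc and turns on metallothioneins, small cysteine-rich proteins that bind zinc, cadmium, and mercury. ATF4, the effector of the integrated stress response, turns on genes for amino acid uptake and synthesis as well as regulators of cell death.

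To show the DNA letters by which these 4 factors are known to recognize their targets, stretches from promoters of genes described below are shown. They were taken from the RefSeq promoters of GRCh38.p14, which span 250 bases before to 50 bases after the annotated start. The CHAC1 stretch and part of the GCLM stretch lie within the gene coordinates given below, which begin upstream of the RefSeq start. Capitals mark matches on either strand to a short motif, written as GAANNTTC for the heat-shock element, TGCACNC or TGCGCNC for the metal response element, TGACNNNGC for the antioxidant response element, and TGATGNAA for the C/EBP-ATF response element. The stretches run 5′ to 3′ on the strand of the gene. The first 2 belong to HSPA6 (chr1:161524355-161524480, plus strand) and HSPA1A (chr6:31815423-31815463, plus strand), which encode inducible chaperones of the HSP70 family.
HSPA6: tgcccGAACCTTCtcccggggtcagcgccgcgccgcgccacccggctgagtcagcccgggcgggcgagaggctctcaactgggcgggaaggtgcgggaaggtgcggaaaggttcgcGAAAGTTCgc
HSPA1A: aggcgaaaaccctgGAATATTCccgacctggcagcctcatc

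The next 3 belong to the metallothioneins MT2A (chr16:56608412-56608538, plus strand) and MT1X (chr16:56682315-56682425, plus strand) and to the zinc exporter SLC30A1 (chr1:211579191-211579231, minus strand), with the metal response element in capitals.
MT2A: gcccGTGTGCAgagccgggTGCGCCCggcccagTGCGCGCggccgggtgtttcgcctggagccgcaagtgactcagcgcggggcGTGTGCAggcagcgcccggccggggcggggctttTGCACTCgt
MT1X: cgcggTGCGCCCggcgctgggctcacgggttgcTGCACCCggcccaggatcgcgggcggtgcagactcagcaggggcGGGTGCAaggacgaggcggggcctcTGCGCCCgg
SLC30A1: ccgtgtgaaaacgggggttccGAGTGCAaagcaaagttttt

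The antioxidant response element is in capitals in TXNRD1 (thioredoxin reductase 1, chr12:104215664-104215704, plus strand) and GCLM (a subunit of the enzyme that starts glutathione synthesis, chr1:93909440-93909480, minus strand).
TXNRD1: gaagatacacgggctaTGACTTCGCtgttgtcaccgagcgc
GCLM: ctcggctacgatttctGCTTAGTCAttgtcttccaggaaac

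The C/EBP-ATF response element is in capitals in CHAC1 (chr15:40953246-40953286, plus strand), ATF3 (chr1:212565197-212565237, plus strand), and HERPUD1 (chr16:56931947-56931987, plus strand).
CHAC1: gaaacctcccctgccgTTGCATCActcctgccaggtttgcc
ATF3: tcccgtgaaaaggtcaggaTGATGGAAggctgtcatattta
HERPUD1: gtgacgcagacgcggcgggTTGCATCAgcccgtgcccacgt

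The heat-shock element was found in the promoters of 12 of the 32 heat-shock genes that had a promoter in the table (37.5%), and in 4.7% of the 9446 promoters of genes tested. The C/EBP-ATF response element was found in 13 of 46 ATF4 target genes (28.3%) and in 1.63% of the promoters of genes tested. The antioxidant response element was found in 25.8% of 31 NRF2 target genes and 15.2% of genes tested. The metal response element was found in 44.4% of 18 metallothionein and zinc transport genes and 39.4% of genes tested. Among these lists, neither element was most frequent in its own. The antioxidant response element also occurred in 28.1% of heat-shock genes, 23.9% of ATF4 target genes, and 9 of 18 metallothionein and zinc transport genes. Of 15 NRF2 target genes that rose and had a promoter, 3 held it. The metal response element also occurred in 54.8% of NRF2 target genes, 34.4% of heat-shock genes, and 30.4% of ATF4 target genes. Over all 27305 promoters in the table, the shares were 6.87% for the heat-shock element, 3.67% for the C/EBP-ATF response element, 13.6% for the antioxidant response element, and 29.3% for the metal response element. Matches to different motifs overlapped in 30 of the 9446 promoters. A match describes letters and is not evidence that the factor was bound, and MT1E had no promoter in the table.

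With mercury at 6 h, the largest rises among genes averaging at least 20 counts belonged to the heat-shock, NRF2 target, and ATF4 target lists, led by HSPA6, HMOX1, and HSPA1A, and few genes fell as far. Of 12341 genes tested, 136 were called higher and 50 lower in edgeR's quasi-likelihood test of counts. To be called, a gene needed a Benjamini-Hochberg adjusted p under 0.05 together with at least a doubling or halving, that is a log2 fold change (LFC) over non-treated cells larger than 1 in size. The called genes are 1.51% of the genes tested (1.1% higher and 0.405% lower). Without a limit on size, 923 genes (7.48%) passed, 554 (4.49%) higher and 369 (2.99%) lower, and these are described as having risen or fallen. The median LFC over all genes tested was -0.02. Levels are given as CPM, the count scaled to a fixed library total, after TMM normalization, for replicates 1, 2, and 3 in this order. In 3′ sequencing the number of counts does not grow with the length of a gene.

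Of the 136 genes called higher, 125 were protein-coding and 28 had an LFC above 2. Their median level was 13.2 CPM in non-treated and 36.2 CPM in mercury-treated cells, and the 3 mercury libraries lay above the 3 non-treated libraries for each of them. Over all genes tested, the libraries did not overlap in this direction in 11.1%, in the other direction in 11.4%, and in 22.6% in all. Of the 50 genes called lower, 37 were protein-coding and 10 were long non-coding RNAs, and for 46 the libraries did not overlap. Without mercury replicate 3, 79 genes were called lower. In all, 68 of the genes called higher and 1 of those called lower belonged to a gene list described below. This does not count the families of zinc finger, SLC, and ABC genes taken by symbol. The lists were chosen with earlier results of these data known, so these counts only describe the called genes. The mean over the 6 libraries was below 20 counts for 18 of the genes called higher and 17 of those called lower.

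Heat-shock genes rose together. Of 37 tested members of the list, 29 rose and 12 of these were called higher, with a median LFC of 0.70. HSPA6 (ENSG00000173110.8, chr1:161524540-161526894, plus strand), an HSP70 that most unstressed cells hardly express, was at 0.82, 0, and 0.32 CPM in non-treated cells. These levels stand for 2, 0, and 1 counts. With mercury, it was at 103.6, 120.2, and 144.6 CPM, from 340, 414, and 589 counts, which is at least 112-fold higher than the level of 3 counts per library (adjusted p = 1.62e-29 in edgeR). The groups were far apart in every library.

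The stress-inducible HSP70 genes HSPA1A and HSPA1B, neighbours on chromosome 6, were far lower in every non-treated library than in any mercury library. HSPA1A (ENSG00000204389.10, chr6:31815543-31817946, plus strand) was at 14.3, 11.3, and 10.6 CPM and at 252.9, 265.4, and 223.4 CPM with mercury, a 20.6-fold difference (LFC 4.37, standard error 0.198, adjusted p = 3.51e-28). HSPA1B was at 52.6, 80.8, and 72.9 CPM and at 742.4, 725.2, and 873.7 CPM with mercury (LFC 3.50, standard error 0.161, adjusted p = 6.29e-28). Of the 50-base stretches at the 3′ end of HSPA1A, 6.76% also occur in HSPA1B, so reads from these stretches could come from either gene. ZFAND2A, an arsenite-inducible partner of the proteasome, rose from 13.1, 6.58, and 7.06 CPM to 63.7, 54.0, and 57.9 CPM (LFC 2.74, standard error 0.258, adjusted p = 3.8e-13). The called members further included BAG3 (LFC 2.09), DNAJB4 (2.02), DNAJB1 (1.8), HSPH1 (1.39), CHORDC1 (1.36), and DNAJA1 (1.02), which are co-chaperones or nucleotide exchange factors of HSP70 and HSP90 and were chosen for mention after their values were seen. Constitutive chaperones rose less, with 0.68 for HSPA8, 0.58 for HSP90AA1, and 0.45 for HSP90AB1. HSF1 itself was at an LFC of 0.01 and did not pass the test.

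Of the 8 subunits of the cytosolic chaperonin TRiC, which folds actin and tubulin, 3 rose by a small amount. These were TCP1 (LFC 0.35, adjusted p = 0.00849), CCT3 (0.28, adjusted p = 0.0175), and CCT4 (0.23, adjusted p = 0.0441), which passed in 4, 4, and 2 of the 6 fits that left out a library. Of 39 proteasome genes, 4 rose, with PSMD11 at 0.36, PSMD14 at 0.50, SEM1 at 0.56, and PSMD13, named after its value was seen, at 0.36. These shares (3 of 8 and 4 of 39) stand beside 4.49% of all genes, and no member of either list reached an LFC of 1.

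NRF2 target genes rose for 20 of 41 tested members, of which 11 were called higher, with a median LFC of 0.55. HMOX1 (ENSG00000100292.18, chr22:35380361-35394214, plus strand) encodes heme oxygenase 1, which breaks heme down to biliverdin, iron, and carbon monoxide. The biliverdin reductases BLVRA and BLVRB, which act next, had LFCs of -0.08 and 0.13 and did not pass. HMOX1 was at 29.0, 20.8, and 34.7 CPM in non-treated cells and at 1398, 1809, and 1588 CPM with mercury, a 56.4-fold difference (LFC 5.82, standard error 0.169, adjusted p = 2.94e-39). NMRAL2P, a transcribed pseudogene known as an NRF2 target, rose from 1.22, 1.83, and 3.85 CPM to 21.9, 23.5, and 19.2 CPM (LFC 3.15, adjusted p = 1.07e-09). For both genes every mercury library was far above every non-treated library.

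Members of the list that act in the glutathione and thioredoxin systems were split. GCLM (ENSG00000023909.10, chr1:93885199-93909456, minus strand) was at 143.2, 157.2, and 132.0 CPM and at 415.8, 380.4, and 473.7 CPM with mercury (LFC 1.56, standard error 0.0948, adjusted p = 1.49e-21). Its partner GCLC, the catalytic subunit of the same enzyme (LFC 0.75, adjusted p = 0.0583), glutathione reductase GSR (0.24, adjusted p = 0.278), thioredoxin TXN (0.54, adjusted p = 0.138), and peroxiredoxin PRDX1 (0.23, adjusted p = 0.0927) did not pass the test. TXNRD1, a selenoprotein that keeps thioredoxin reduced and is a known target of mercury, rose from 103.7, 156.1, and 131.0 CPM to 488.7, 404.3, and 571.1 CPM (LFC 1.90, standard error 0.152, adjusted p = 4.39e-16). Of the 16 tested selenoprotein genes, SELENOS and SELENOK, both involved in degradation at the endoplasmic reticulum, also rose (LFC 0.60 and 0.50, adjusted p = 0.000132 and 0.00337). AKR1C1, an aldo-keto reductase, rose from 18.4, 20.1, and 15.4 CPM to 50.9, 49.9, and 54.8 CPM (LFC 1.54, adjusted p = 5.26e-11), though 19.3% of the stretches at its 3′ end are shared with AKR1C2 and AKR1C3. The ferritin genes FTH1 (LFC 1.0) and FTL (0.72), which store iron, and MAFG (1.59), a partner of NRF2, were among the further members that rose and were chosen after their values were seen.

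Of 56 tested ATF4 target genes, 42 rose, 27 of them called, and the median LFC of 0.99 was the highest among the lists. The list was 1 of 29, all chosen with earlier results of these data known. CHAC1 (ENSG00000128965.13, chr15:40952962-40956512, plus strand), an enzyme that degrades glutathione, was at 2.86, 4.39, and 4.49 CPM and at 45.7, 54.0, and 23.6 CPM with mercury (LFC 3.36, standard error 0.325, adjusted p = 1.06e-12). Replicate 3 was the lowest of the mercury libraries and still above the non-treated libraries. DDIT4, an inhibitor of mTORC1, rose from 15.1, 14.3, and 17.7 CPM to 130.7, 148.4, and 113.0 CPM (LFC 3.05, adjusted p = 1.81e-20). SESN2, which also restrains mTORC1, rose from 20.0, 21.6, and 21.8 CPM to 119.4, 153.6, and 124.2 CPM (LFC 2.64, adjusted p = 7.09e-20). GDF15, a secreted stress cytokine, rose from 1.63, 5.12, and 2.25 CPM to 24.4, 25.9, and 25 CPM (LFC 3.04, adjusted p = 1.09e-10).

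Several transcription factors of this list rose, but ATF5 did not pass the test (LFC -0.003, adjusted p = 0.996). ATF3 (ENSG00000162772.17, chr1:212565334-212620777, plus strand) was at 6.53, 4.02, and 6.10 CPM and at 33.5, 31.6, and 37.8 CPM with mercury (LFC 2.62, standard error 0.29, adjusted p = 1.13e-10). ATF4 itself (LFC 0.93), DDIT3 (1.32), which encodes CHOP, and CEBPB (1.83), chosen after their values were seen, rose as well. STC2, a secreted glycoprotein, had the lowest adjusted p of the list and rose from 108.6, 93.6, and 102.1 CPM to 482.3, 532.9, and 406.4 CPM (LFC 2.22, adjusted p = 3.2e-24). The member that fell was TXNIP, an inhibitor of thioredoxin and of glucose uptake, which is described with the genes called lower.

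Genes for the uptake, synthesis, and charging of amino acids made up much of the rest of the list. SLC7A11, the cystine importer that supplies glutathione synthesis and belongs to both the NRF2 and the ATF4 list, rose from 139.6, 123.9, and 120.1 CPM to 490.2, 467.0, and 526.9 CPM (LFC 1.95, standard error 0.111, adjusted p = 4.82e-23). SLC3A2, the heavy chain with which it pairs, rose from 129.8, 137.8, and 126.2 CPM to 350.0, 354.0, and 285.3 CPM (LFC 1.33, adjusted p = 5.74e-17). CTH, which makes cysteine from cystathionine, rose from 1.22, 2.19, and 4.49 CPM to 10.7, 14.2, and 17.7 CPM (LFC 2.37, adjusted p = 1.35e-06), and GPT2, a mitochondrial alanine transaminase, rose with an LFC of 1.39. Of 20 cytosolic tRNA synthetase genes, 9 rose, with LFCs of 1.05 for CARS1, 0.78 for GARS1, and 0.65 for TARS1, and FARSA fell (LFC -0.43). FARSA was named after its value was seen.

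Among membrane transporters of the SLC families, which carry amino acids, sugars, and ions, most did not pass the test. Of 180 tested members, 16 rose, 8 of them called, and 3 fell, with a median LFC of 0.08. Over all genes tested, 4.49% rose, 1.1% were called higher, and 2.99% fell. Several SLC members that rose also belong to the ATF4 list. Beside SLC7A11, SLC3A2, and SLC30A1, the called members were the amino acid transporters SLC1A4 (LFC 1.55), SLC7A5 (1.49), SLC6A9 (1.31), and SLC1A5 (1.09) and the glucose transporter SLC2A3 (1.14). The members that fell were SLC27A4 (LFC -0.87), SLC26A2 (-0.75), and SLC5A6 (-0.43). These genes were named after their values were seen. Of 21 ABC transporter genes, ABCC2, an exporter of glutathione conjugates, rose (LFC 0.69, adjusted p = 0.0258) and passed in 2 of the 6 fits that left out a library.

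Among 21 metallothionein and zinc transport genes, 5 rose, 4 of them called, with a list median of 0.11. The other members did not pass the test and, leaving out MT1B, had LFCs between -0.65 for SLC39A8 and 0.36 for SLC30A3, a zinc importer and a vesicular zinc transporter. MT1E (ENSG00000169715.15, chr16:56625475-56627112, plus strand) was at 204.1, 250.4, and 288.6 CPM and at 745.2, 779.2, and 653.4 CPM with mercury (LFC 1.55, standard error 0.106, adjusted p = 3.65e-19). MT1X (ENSG00000187193.9, chr16:56682470-56684196, plus strand) rose from 8.98, 6.94, and 2.89 CPM to 25, 32.5, and 23.8 CPM (LFC 2.15, standard error 0.239, adjusted p = 1.46e-10), with 44.4% of the stretches at its 3′ end shared with other metallothionein loci. MT2A (ENSG00000125148.7, chr16:56608584-56609497, plus strand) was at 2540, 2591, and 2646 CPM and at 8613, 9312, and 4086 CPM with mercury (LFC 1.50, standard error 0.19, adjusted p = 8.47e-09). Mercury replicate 3 was the lowest of its group but above the non-treated libraries. At the 3′ ends of MT2A and MT1E, 8.67% and 6.19% of the stretches also occur in other genes. For MT2A, these genes include MT1X, which was at far lower levels.

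The zinc exporter SLC30A1 (ENSG00000170385.10, chr1:211571568-211579161, minus strand) rose from 36.7, 42.4, and 48.5 CPM to 103.9, 102.5, and 118.1 CPM (LFC 1.34, standard error 0.136, adjusted p = 6.76e-12). The remaining member that rose was SLC39A14, an importer of zinc and iron (LFC 0.67), named after its value was seen. MT1B was at the floor in both groups, with at most 1 count in a library. MTF1, the factor that turns these genes on, had an LFC of 0.11 and did not pass the test.

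The list for the endoplasmic reticulum holds chaperones together with degradation factors and regulators of the unfolded protein response. Of its 31 tested members, 9 rose, 2 of them called, with a median LFC of 0.12. The called members, HERPUD1 and XBP1, are not chaperones. HERPUD1, part of the machinery that degrades proteins of this compartment, rose from 29.4, 28.1, and 28.6 CPM to 86.8, 105.7, and 87.7 CPM (LFC 1.70, adjusted p = 2.25e-14). XBP1, a transcription factor of the unfolded protein response, rose from 58.4, 66.9, and 60.4 CPM to 130.1, 170.2, and 145.4 CPM (LFC 1.26, adjusted p = 1.21e-14). HSPA5, the chaperone BiP, rose from 946.8, 1025, and 982.1 CPM to 1580, 1709, and 1519 CPM (LFC 0.70, adjusted p = 4.46e-11). HSP90B1 (LFC 0.15), PDIA4 (0.12), and CALR (0.10), abundant chaperones of the same compartment, did not pass the test.

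Of 28 autophagy and ubiquitin receptor genes, 8 rose. SQSTM1, the receptor p62, had an LFC of 0.74 (adjusted p = 2.32e-09), ATG101 one of 0.85 (adjusted p = 0.000118), and MAP1LC3B one of 0.62 (adjusted p = 0.00108). GABARAPL1 was the called member (LFC 1.91), at a mean of 1.47 CPM in non-treated and 5.48 CPM in mercury-treated cells, and was named after its value was seen. It passed in 3 of the 6 fits that left out a library.

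Immediate-early genes, which respond to growth factor and stress signals, changed in both directions. Of 46 tested members, 16 rose, 9 of them called, and 4 fell, with a median LFC of 0.44. DUSP5 and DUSP6, phosphatases that switch off ERK, rose from 12.7, 18.6, and 13.2 CPM to 49.7, 56.3, and 53.5 CPM (LFC 1.84, adjusted p = 1.83e-10) and from 11.4, 12.1, and 11.9 CPM to 41.7, 32.5, and 44.7 CPM (LFC 1.75, adjusted p = 4.16e-09). NR4A1, an orphan nuclear receptor, rose from 2.86, 1.46, and 3.53 CPM to 12.2, 11, and 8.35 CPM (LFC 1.97, adjusted p = 0.00101). The 4 members that fell, named after their values were seen, were ID1 (LFC -0.64), ID2 (-0.75), and ID3 (-0.48), inhibitors of helix-loop-helix transcription factors, and RHOB (-0.99). Of 18 NF-kB and cytokine genes, RELB rose (LFC 1.29, adjusted p = 0.0352), but it passed in only 1 of the 6 fits that left out 1 of the libraries compared.

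Mitosis genes fell together by a small amount. Of 39 tested members, 23 fell, each by an LFC of less than 1 in size, and the median LFC was -0.37. The sign was negative for all 39. CENPE, a kinesin at the kinetochore (ENSG00000138778.14, chr4:103105349-103198445, minus strand), was at 169.4, 172.2, and 175.9 CPM and at 99.6, 97.3, and 93.3 CPM with mercury (LFC -0.84, standard error 0.108, adjusted p = 1.69e-08). AURKA, a kinase of the spindle pole, fell from 300.8, 325.3, and 302.4 CPM to 202.3, 205.9, and 183.4 CPM (LFC -0.65, adjusted p = 8.5e-08), and TOP2A, the topoisomerase that untangles chromosomes, fell from 2249, 1944, and 1995 CPM to 1459, 1535, and 1408 CPM (LFC -0.49, adjusted p = 1.8e-06). The summed level of the list was 9627 to 10080 CPM in non-treated and 7342 to 7553 CPM in mercury-treated cells. In bulk RNA, fewer cells in mitosis and less RNA in each cannot be told apart. Without non-treated replicate 1, 15 members fell.

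By contrast, DNA replication genes had a median LFC of 0.01. Of 44 members, CCNE2 (LFC -0.64), CDT1 (-0.47), and CLSPN (-0.25, named after its value was seen) fell and RFC3 rose (0.76). The 3 falls did not pass when only the 6 libraries compared were fitted, and RFC3 had an LFC of 0.36 (adjusted p = 0.168) with the non-treated cells of 3, 6, and 12 h as control. Leaving out a library, CCNE2 and RFC3 passed in 2 and CDT1 in 1 of 6 fits. Of 25 p53 targets, 4 rose and 3 fell. Their LFC was negative for 18 members, with a median of -0.14. CDKN1A, the cell cycle inhibitor p21, rose from 31.0, 29.6, and 31.1 CPM to 72.5, 89.2, and 57.7 CPM (LFC 1.25, adjusted p = 3.48e-08, but 0.51 against the non-treated cells of 3 h and 12 h), and PMAIP1 (NOXA) and GADD45A rose with LFCs of 1.02 and 0.95. TNFRSF10B, a death receptor, rose (LFC 0.66), and POLH (-0.76), XPC (-0.57), and ZMAT3 (-0.51) fell. These 4 were named after their values were seen. MDM2, a classical p53 target, had an LFC of -0.18 and did not pass the test.

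Other lists changed in few members. Of 23 cholesterol synthesis genes, MVK fell (LFC -0.58), and of 78 ribosomal protein genes 6 rose, among them RPL30, RPS18, and RPL10A with LFCs of 0.34, 0.41, and 0.26. The number of ribosomal protein genes that rose was 20 without mercury replicate 3 and 14 in DESeq2. Of 32 matrix and adhesion genes, COL6A3 and ITGB5 rose (LFC 0.42 and 0.39) and COL1A2 fell (-0.33). Leaving out a library, MVK, COL1A2, and ITGB5 passed in 1, 1, and 3 of 6 fits, and RPL30, RPL10A, and RPS18 in 4, 4, and 3. Of 11 tubulin genes, TUBA1A rose (0.34, but -0.02 against the non-treated cells of 3 h and 12 h) and TUBB6 fell (-0.47), and of 383 zinc finger genes 3 rose and 5 fell, with ZNF414 at -1.57, ZNF608 at -1.28, and ZNF300 at 0.62. The other 5, named after their values were seen, were ZNF697 (0.85) and ZNF473 (0.71), which rose, and ZNF433 (-1.16), ZNF500 (-0.84), and ZNF714 (-0.62), which fell. ZNF433 passed in 1 of 6 fits that left out a library. Of 13 mitochondrially encoded genes, 12 had a positive LFC, with a median of 0.28. For 7 of the 13 the libraries did not overlap, against 22.6% of all genes tested in either direction. MT-CYB was at 2196 to 2260 CPM in non-treated and 2674 to 2881 CPM in mercury-treated cells, and MT-ND4 at 4869 to 5341 and 6408 to 6709 CPM. They did not pass in the fit of all 60 libraries (adjusted p = 0.525 and 0.549), whereas 5 of the 13 genes rose when only the 6 libraries compared were fitted.

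The line was checked against markers of its tissue. Of 15 astrocyte markers, 7 passed the filter on low counts and GFAP, S100B, AQP4, ALDH1L1, SLC1A2, and FABP7 had at most 3 counts in each of the 6 libraries, so that several defining markers of mature astrocytes were at or near 0. The summed level of the list was 4203 to 5780 CPM in non-treated and 4044 to 5446 CPM in mercury-treated cells, and VIM, CD44, and GJA1 had LFCs of -0.13, 0.10, and 0.54 (adjusted p = 0.617, 0.46, and 0.14). Markers of neurons summed to 17.98 to 24.13 CPM and 27.01 to 33.4 CPM, with 5 of 8 at most at 3 counts. SYT1, a synaptic vesicle protein, rose (LFC 1.30, adjusted p = 0.000838), and NEFL and GAD1 had LFCs of -0.56 and 0.06 (adjusted p = 0.657 and 0.949). No marker of oligodendrocytes, microglia and blood cells, or endothelium passed the filter. Of 10 markers of liver and colon epithelium, 9 had at most 3 counts in each of the 6 libraries. The other, AFP, passed the filter at 0.96 to 2.86 CPM in non-treated and 0.98 to 3.78 CPM in mercury-treated cells. Its LFC was 0.38 (edgeR, adjusted p = 0.824).

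Of the genes called lower, TXNIP belonged to the lists above, and ZNF414, ZNF608, and ZNF433 to the zinc finger genes. H1-5 (ENSG00000184357.5, chr6:27866792-27867588, minus strand), a linker histone whose main mRNA lacks a poly(A) tail, was at 18, 17.6, and 22.1 CPM and at 4.26, 1.74, and 5.16 CPM with mercury (LFC -2.34, standard error 0.389, adjusted p = 7.65e-06). LFNG (ENSG00000106003.14, chr7:2512529-2529177, plus strand), a glycosyltransferase that modifies Notch, fell from 20.0, 18.3, and 17.3 CPM to 5.48, 5.23, and 5.40 CPM (LFC -1.78, standard error 0.304, adjusted p = 1.47e-05). TXNIP (ENSG00000265972.6, chr1:145992435-145996579, minus strand) fell from 59.2, 54.5, and 73.2 CPM to 15.2, 22.9, and 21.6 CPM (LFC -1.64, standard error 0.168, adjusted p = 7.75e-12). ATOH8 (ENSG00000168874.13, chr2:85751344-85791383, plus strand), a helix-loop-helix transcription factor, fell from 44.5, 32.9, and 53.6 CPM to 15.2, 14.5, and 13.7 CPM (LFC -1.60, standard error 0.206, adjusted p = 1.59e-08). In each of these genes the 3 mercury libraries lay below the 3 non-treated libraries. CTDSP1, a phosphatase of RNA polymerase II, fell (LFC -1.42, adjusted p = 3.48e-08), and TUBD1, SFXN2, ALKBH6, PRRT2, and TAB1 had LFCs of -1.35, -1.34, -1.33, -1.31, and -1.26.

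The non-treated cells at 6 h enter every LFC above, and their levels were compared with those of the non-treated cells at 3 h and 12 h. The mean of the non-treated group at 6 h was above the means at both 3 h and 12 h for 44 of the 50 genes called lower, against 33.7% of all genes tested, and it was below both for 74 of the 136 genes called higher (54.4%), against 30.4% of all genes tested. The genes were called on these same libraries. Against the non-treated cells of 3 h and 12 h alone, the median LFC was 1.23 in place of 1.48 for the genes called higher and -0.82 in place of -1.32 for those called lower. The sign was the same for 135 of 136 and 50 of 50, and 93 and 9 were called again. H1-5, LFNG, TXNIP, ATOH8, CTDSP1, and SFXN2 were called again with LFCs of -1.86, -1.65, -1.35, -1.50, -1.51, and -1.05. Of the genes called higher and named above, CDKN1A, SLC1A5, SLC2A3, DNAJA1, and FTH1 were not called again, with LFCs of 0.51, 0.72, 0.68, 0.97, and 0.81, each at an adjusted p under 0.05. TAB1 was not called again, with an LFC of -0.29 (adjusted p = 0.599). Neither were ZNF414 (-0.74), TUBD1 (-0.95), ALKBH6 (-0.84), PRRT2 (-0.99), ZNF608 (-0.88), and ZNF433 (-0.64). Among these, ZNF414, ALKBH6, and ZNF433 did not pass either (edgeR, adjusted p = 0.126, 0.0764, and 0.305).

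To place the 6 h time point in the course of the treatment, the mercury effect at 6 h was tested against those at 3 h and 12 h, each over the non-treated cells of its own hour. Between 3 h and 6 h, 10 genes were called, with 7 larger (0.0567%) and 3 smaller (0.0243%) LFCs at 6 h, in all 0.081% of the genes tested. At any size 40 passed (0.324%), 28 larger (0.227%) and 12 smaller (0.0972%). HSPA5 had an LFC of 0.06 at 3 h and 0.70 at 6 h (difference 0.65, adjusted p = 0.00026), and TXNRD1 had 0.74 and 1.90 (difference 1.16, adjusted p = 0.000955). HMOX1 (4.69 and 5.82), GCLM (0.84 and 1.56), SLC7A11 (1.17 and 1.95), and STC2 (1.33 and 2.22) also differed, with adjusted p = 0.00777, 0.0012, 0.00406, and 0.0012. Some genes had a response at 3 h and no detected further change. ATF3 had LFCs of 2.43 and 2.62 (difference 0.19, adjusted p = 0.939), and DDIT4 had 3.38 and 3.05 (difference -0.34, adjusted p = 0.784). At 3 h, 39 of the genes called higher at 6 h were already called, and 1 of those called lower, where 60 genes (0.486%) were called in all, 58 higher (0.47%) and 2 lower (0.0162%).

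Between 6 h and 12 h, 75 genes were called (0.608% of the genes tested), with 42 larger (0.34%) and 33 smaller (0.267%) LFCs at 12 h. At any size 237 passed (1.92%), 95 larger (0.77%) and 142 smaller (1.15%). HSPA1A rose further from an LFC of 4.37 to 5.65 (difference 1.29, adjusted p = 0.0139), GDF15 from 3.04 to 5.42 (difference 2.38, adjusted p = 0.016), and AKR1C1 from 1.54 to 2.93 (difference 1.40, adjusted p = 0.000244). MT2A had an LFC of 1.50 at 6 h and 0.36 at 12 h (difference -1.15, adjusted p = 0.0106), and TXNIP had -1.64 and -0.33 (difference 1.31, adjusted p = 0.000593). Of the 136 genes called higher at 6 h, 99 were called in the same direction at 12 h, and of the 50 called lower, 10. At 12 h, 463 genes (3.75%) were called in all, 319 higher (2.58%) and 144 lower (1.17%). The count of 75 was 166 without mercury 6 h replicate 3, 22 without mercury 6 h replicate 2, and 32 without non-treated 12 h replicate 1, so it rests on single libraries. It was 40, 44, and 46 without mercury 6 h replicate 1 and non-treated 6 h replicates 2 and 3. The count of 10 between 3 h and 6 h was 24 without mercury 6 h replicate 3.

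At any size, 191 genes (1.55%) passed at 3 h, 172 higher (1.39%) and 19 lower (0.154%), and 1980 (16.0%) at 12 h, 1097 higher (8.89%) and 883 lower (7.16%). At the level of lists, 19 of 37 heat-shock genes rose at 3 h, 29 at 6 h, and 31 at 12 h, with medians of 0.43, 0.70, and 0.85. For ATF4 targets the numbers were 21, 42, and 48 of 56 (medians 0.41, 0.99, and 1.19), and for NRF2 targets 10, 20, and 29 of 41 (medians 0.27, 0.55, and 0.87). Tested directly, the effect was larger at 6 h than at 3 h for 5 heat-shock genes, 8 ATF4 targets, and 6 NRF2 targets, and larger at 12 h than at 6 h for 6, 6, and 5. Mitosis genes, of which 23 fell at 6 h and 23 at 12 h, had medians of -0.14, -0.37, and -0.38.

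The other metals were compared directly with mercury at 6 h. The doses differed, with 20 µM mercury chloride, 2.3 µM cadmium chloride, and 2.55 µM sodium metaarsenite, which the study chose as equally toxic over a longer treatment. Whether they act with equal strength at 6 h was not tested here, so a difference between metals and one in effective dose cannot be told apart. Against cadmium, 80 genes were called (0.648% of the genes tested), 41 higher (0.332%) and 39 lower (0.316%) with mercury. Against arsenic, 79 were called (0.64%), 48 higher (0.389%) and 31 lower (0.251%). At any size, 467 genes (3.78%) differed from cadmium, 264 higher (2.14%) and 203 lower (1.64%), and 553 (4.48%) from arsenic, 379 higher (3.07%) and 174 lower (1.41%). The counts were 126 and 108 without mercury replicate 3, and 48 against cadmium when only the libraries compared were fitted.

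Many genes of the stress response lists were higher with mercury than with either metal. Of 56 ATF4 targets, 34 were higher than with cadmium and 29 higher than with arsenic, and the numbers were 13 and 18 of 37 heat-shock genes and 16 and 12 of 41 NRF2 targets. HSPA6 was at 122.8 ± 20.6 CPM with mercury, 65.1 ± 10.1 with cadmium, and 13.9 ± 1.54 with arsenic (SD, n = 3 each), an LFC of 0.92 over cadmium (adjusted p = 3.43e-05) and 3.14 over arsenic (adjusted p = 2.72e-21). ZFAND2A was 1.11 and 2.21 higher on the log2 scale (adjusted p = 0.000382 and 1.91e-10). CTH was at 14.2 ± 3.51 CPM with mercury, 3.02 ± 0.592 with cadmium, and 7.47 ± 1.86 with arsenic. It differed from cadmium (LFC 2.24, adjusted p = 7.39e-06) but not detectably from arsenic (LFC 0.94, adjusted p = 0.0573). HMOX1 was at 1598 ± 206 CPM, 958 ± 133 CPM, and 1229 ± 33.6 CPM in the same order, with an LFC of 0.74 over cadmium (adjusted p = 3.53e-05) and 0.38 over arsenic (adjusted p = 0.0653).

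Metallothioneins were the opposite with respect to cadmium. MT1E was at 725.9 ± 65.1 CPM with mercury, 3243 ± 180 with cadmium, and 470 ± 38.6 with arsenic, which gave an LFC of -2.16 against cadmium (adjusted p = 4.44e-26) and 0.63 against arsenic (adjusted p = 1.34e-05). MT1X was lower than with cadmium by an LFC of -2.65 (adjusted p = 9.2e-21), SLC30A1 by -1.33 (adjusted p = 3.14e-13), and MT2A by -0.66 (adjusted p = 0.0279). Without mercury replicate 3, MT2A had an LFC of -0.36 (adjusted p = 0.279), and it passed in 2 of the 6 fits that left out a library. MT1B, at the floor with mercury, was at 3.95 ± 0.991 CPM with cadmium. SLC30A1 did not differ detectably between mercury and arsenic (LFC 0.17, adjusted p = 0.52), at 108.2 ± 8.64 and 96.2 ± 2.51 CPM.

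Immediate-early genes separated mercury from arsenic. Of 46 members, 19 were higher and 2 lower with mercury than with arsenic, and 1 was higher and 6 lower than with cadmium. DUSP5 was at 53.2 ± 3.36 CPM with mercury, 37.2 ± 1.30 with cadmium, and 17.4 ± 3.52 with arsenic. Its LFC was 1.60 over arsenic (adjusted p = 1.23e-08) and 0.52 over cadmium (adjusted p = 0.107). Outside this list, CDKN1A and UNC5B were higher with mercury than with either metal. CDKN1A, of the p53 target list, was at 73.1 ± 15.7 CPM with mercury, 36.6 ± 0.509 with cadmium, and 32.0 ± 4.38 with arsenic. Its LFCs were 1.0 and 1.19 (adjusted p = 1.35e-05 and 2.11e-07). UNC5B, a netrin receptor, was at 15.9 ± 3.43 CPM with mercury and at 4.41 ± 1.45 and 4.12 ± 1.58 CPM with the other metals (LFC 1.86 and 1.95, adjusted p = 8.97e-06 and 1.92e-06).

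Some of the genes that fell with mercury were also lower than with the other metals. Mitosis genes were lower than with cadmium for 9 members and lower than with arsenic for 9 of 39. LFNG was at 5.37 ± 0.131 CPM with mercury, 14.3 ± 4.13 with cadmium, and 14.2 ± 2.09 with arsenic (LFC -1.42 and -1.39, adjusted p = 0.00217 and 0.00178), and ATOH8 was at 14.5 ± 0.741, 35.8 ± 7.30, and 44.4 ± 2.80 CPM (LFC -1.30 and -1.61, adjusted p = 1.14e-05 and 2.96e-08). PRRT2, at 9.0 ± 2.05 CPM with mercury, was at 8.94 ± 5.16 CPM with cadmium and did not differ detectably (LFC 0.06, adjusted p = 0.965). Of 13 mitochondrially encoded genes, 4 were higher with mercury than with cadmium, and these genes took 1.35% of the counts in cadmium replicate 1 against 5.08% and 5.84% in the other replicates. The part of that library in the result was not tested.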

How the data were processed

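1321N1 cells were profiled by 3′ mRNA sequencing (QuantSeq). The authors aligned the reads with STAR 2.7.9a (per the submitters' processing notes) to GRCh38 with GENCODE annotation and counted them per gene by strand, and the deposited table holds raw counts of 62703 genes. Here, 92 spike-in rows without counts were left out, 28620 genes had a count, and 12341 passed the filter of filterByExpr (minimum count 10, minimum total 15).

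All 60 libraries in 20 groups were fitted with the quasi-likelihood test of edgeR 4.0.16 (limma 3.58.1, R 4.3.3) after TMM normalization, and each contrast was adjusted by the Benjamini-Hochberg method. The group of each library came from its title. Standard errors were taken from the fold change and its F statistic. A level of 3 counts served as floor, equal to 0.737 to 0.914 CPM in mercury and 0.963 to 1.22 CPM in non-treated libraries at 6 h, which covers counting error only. The total in each library was 2439814 to 4110137 counts over these 6 libraries. No pair of replicates was a copy of the other.

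Named genes were the 12 largest rises and falls among called genes averaging 20 counts or more whose libraries did not overlap, the 3 members of each list with the lowest adjusted p, all metallothioneins tested, and the 5 largest differences in each direction in the other comparisons. The members and lists were chosen with earlier results of these data known. Genes outside the rule are marked as such or are markers, regulators, or counterexamples chosen after their values were seen. Alternatives were DESeq2 1.42.0, other size factors, other filters, a replicate block, fewer libraries, a test beyond an LFC of 1, and leaving out each library. Wider non-treated controls and equal depth were added after seeing the data. Tests were tried on simulated data.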

Additional observations from a re-analysis of the deposited data

Results flagged for a closer look

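The mercury effect at 6 h was tested against that at 3 h in edgeR by a test of the difference itself, and 10 genes were called. Called genes with a larger log2 fold change at 6 h (6 h minus 3 h) included HKDC1, a hexokinase-like gene (1.48), KYNU, an enzyme of tryptophan breakdown (1.25), AKR1C1 (1.23), GPT2 (1.21), TXNRD1 (1.16), and HMOX1 (1.13). ZNF414 (-1.89) and IL10RB (-1.35) were called with a smaller one. Below the size limit for a call, the difference passed at an adjusted p under 0.05 for STC2 (0.89), SLC3A2 (0.81), SLC7A11 (0.78), GCLM (0.71), HSPA5 (0.65), and CENPE (-0.69). Of 12 fits that each left out 1 library, IL10RB passed in 3, KYNU in 4, and ZNF414 in 6.

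The effect at 12 h differed from that at 6 h for 75 called genes in the same test. Called with a larger value at 12 h were GDF15 (2.38), TUBD1 (1.52), RHOBTB1 (1.52), ZFAND2A (1.43), AKR1C1 (1.40), TXNIP (1.31), HSPA1A (1.29), GADD45A (1.07), and CCNE2 (1.05). Of these, TUBD1, RHOBTB1, TXNIP, and CCNE2 were below their non-treated level at 6 h. Over the non-treated cells of 3 h and 12 h, the 6 h LFC of RHOBTB1 was -0.66 in place of -1.14. It did not pass there (edgeR, adjusted p = 0.0591). TUBD1 had -0.95 in place of -1.35, and TXNIP had -1.35 in place of -1.64. Called with a smaller value were RFC3 (-1.43), MT2A (-1.15), and CTDSP1 (-1.08). The limits given above for CCNE2 and RFC3 at 6 h apply here as well. Below the size limit, the difference passed for MAP1LC3B (0.79), SQSTM1 (0.66), GCLM (0.63), GARS1 (0.60), ATG101 (-0.97), TUBA1A (-0.62), and RPS18 (-0.58). Of 12 fits that each left out 1 library, TUBD1 passed in 2, CTDSP1 and RPS18 in 5, ZFAND2A and GARS1 in 7, and MT2A in 10. MT2A was lowest in replicate 3 of the mercury libraries at 6 h, and its difference was -1.43 without it.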

How the results depend on the processing

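Against non-treated cells, the total of 186 called genes ranged from 156 to 194 under the alternatives other than the test beyond an LFC of 1 and leaving out libraries. That test (glmTreat) called 36 genes with mercury (34 higher, 2 lower), 6 against cadmium, and 3 against arsenic. It called 0 between 6 h and 3 h and 0 between 12 h and 6 h, where 65 and 112 genes had an unadjusted p under 0.05 and DESeq2 called 14 and 47 at the thresholds used throughout. The genes called lower numbered 33 with non-treated cells of 3, 6, and 12 h as control and 30 with those of 3 and 12 h. Fitting only the libraries compared gave 48 genes against cadmium, and no filter gave 21 between 6 h and 3 h. Leaving out 1 library gave 163 to 217 genes in total, 119 to 140 higher and 40 to 79 lower, 57 to 126 against cadmium, 57 to 108 against arsenic, 7 to 24 between 6 h and 3 h, and 22 to 166 between 12 h and 6 h. The highest count of genes called lower, 79, was the one without mercury replicate 3. With the control of 3 and 12 h, ABCF1 had an LFC of 0.035 and TUBA1A one of -0.019, opposite in sign. Leaving out 1 library gave -0.26 to 0.00050 for VIM and -0.17 to 0.31 for GAD1, neither of which had passed. The cause of these shifts was not tested.

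Replicate numbers did not pair the libraries, with correlations across genes of -0.042, -0.13, and 0.0016 between same-numbered mercury and non-treated libraries. The replicate block gave 184 genes (133 higher, 51 lower), 83 against cadmium, 82 against arsenic, 10 between 6 h and 3 h, and 72 between 12 h and 6 h. Of 84 named genes that passed, 57 passed under every alternative other than the test beyond an LFC of 1, and 23 passed that test. Of 1260 pairs of such a gene and an alternative, 93 no longer passed and 1 was reversed.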
